A study of Drosophila erecta with 23 samples.

Results

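The genes described here are 10 cyclins and mitotic regulators of the fly embryo, followed through embryogenesis in *Drosophila erecta*. They were chosen by name, from a list of gene identifiers. The list uses no threshold on a measured value, but it was drawn up with earlier results of these data known. All 10 were among the 8948 genes of the deposited expression table. The table lists *D. erecta* genes under the identifiers of their *D. melanogaster* orthologs. The mitotic cyclins are *CycA* (FBgn0000404), *CycB* (FBgn0000405) and *CycB3* (FBgn0015625). *CycE* (FBgn0010382), the G1/S cyclin, and *dap* (FBgn0010316), the inhibitor of the Cyclin E kinase, act at the entry into S phase. The Cdc25 phosphatases, which activate Cdk1, are *stg* (string, FBgn0003525) and *twe* (twine, FBgn0002673). *Cdk1* (FBgn0004106) and *polo* (FBgn0003124) are mitotic kinases, and *fzy* (fizzy, FBgn0001086) is the Cdc20 activator of the anaphase-promoting complex.

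Entry into mitosis requires Cdk1 bound to a mitotic cyclin, and a Cdc25 phosphatase that removes the inhibitory phosphates from it. Exit requires the destruction of the cyclins, which Fizzy directs. In *D. melanogaster*, the nuclei of the early embryo divide rapidly on supplies laid down by the mother. Later divisions wait for zygotic string, and most epidermal cells then stop cycling under the action of Dacapo on Cyclin E, while neural precursors go on dividing.

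The data are RAMPAGE libraries, which sequence 5'-complete cDNAs and so report transcription start sites and their activity. Whole embryos of the reference genome strain of *D. erecta*, with no genetic or other treatment, were taken hourly, and the first window was 0-1 h and the last 22-23 h of age. There was 1 library for each of the 23 windows of 1 h, so no value has a replicate. Each read marks an RNA start, so levels in RPM (reads scaled to a common library total) do not scale with gene length and are set side by side between genes. Reads are not independent molecules, so these levels are not counts of RNA molecules. In whole embryos, fewer dividing cells and less RNA per dividing cell cannot be told apart. Maternal and zygotic RNA could not be separated either.

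The 7-8 h library was shallow, with a total of 142925 reads. The other totals lay between 1051976 and 13984136 (0-1 h), and the median total was 3427860 reads. At 7-8 h a single read was worth 7.00 RPM. Intervals below are 95% Wilson intervals of the read counts and cover counting error only. Stage markers followed the labelled order in outline: a list of 3 maternal RNAs was highest at 0-1 h (1179 RPM in sum) and a list of 3 blastoderm genes at 3-4 h (1276 RPM). The 3 identifiers of neuroblasts and neurons in the table were highest at 6-7 h (246 RPM), the 1 of late cuticle at 17-18 h (180 RPM) and the 1 S phase marker at 0-1 h (87.5 RPM). The 4-5 h and 5-6 h libraries stood apart. The 1 muscle identifier in the table, which was highest at 20-21 h (6516 RPM), had 64.1, 1985, 871 and 6.90 RPM in the 4 libraries from 3 to 7 h. The same identifier went from 4730 RPM at 21-22 h to 390 RPM at 22-23 h, the last library of the series. A set of 280 late start sites was picked as high from 20 to 23 h and low at 6-7 h and from 8 to 11 h. It held 10.7% of the reads at 4-5 h and 6.69% at 5-6 h, but 0.592% at 3-4 h, hours not used in the choice. Its low share at 6-7 h (0.0278%) was fixed by that choice. The part of these late transcripts in the values at 4-6 h was not tested. The curve fits and the windows of 3 to 6 h were also run without the 4-5 h and 5-6 h libraries.

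**Figure D1:**
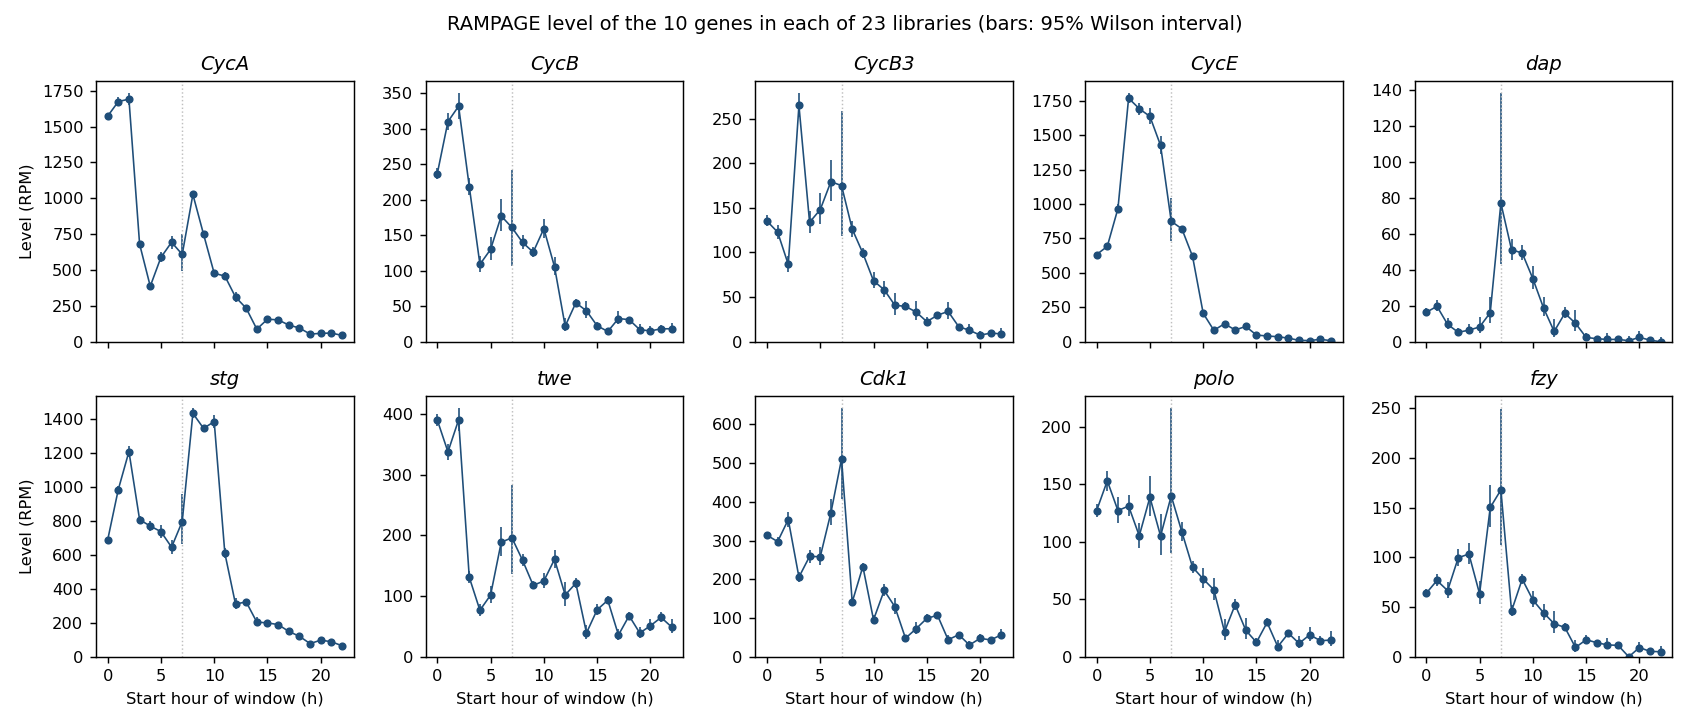
Level in RPM (vertical axis, starting at 0) of each of the 10 genes against the start hour of the collection window, 1 library per point. Bars are 95% Wilson intervals of the read counts and the dotted line marks the shallow 7-8 h library. *CycA*, *CycB* and *twe* are highest before 3 h, *CycE* and *CycB3* at 3-4 h and *stg* at 8-9 h, and all 10 genes are low from 15 h on.

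The mitotic cyclins were highest before 4 h. *CycA* had 1573, 1675 and 1692 RPM in the libraries from 0 to 3 h, and 681, 387 and 588 RPM in those from 3 to 6 h. The groups did not overlap. *CycA* then returned to 1027 RPM at 8-9 h, above each of the 5 libraries before it, and reached its lowest level, 43.8 RPM, at 22-23 h. Its highest level was 38.6-fold its lowest. *CycB* had a similar course at a lower level, with 237, 310 and 332 RPM from 0 to 3 h, a low of 109 RPM at 4-5 h, and between 106 and 177 RPM in every library from 5 to 12 h. The 12-13 h library stood below both of its neighbours, with 21.9 RPM from 23 reads. Of all *CycB* libraries, 16-17 h was lowest, with 14.4 RPM.

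*CycB3*, the third mitotic cyclin, differed from the other two in its first hours. It had 135, 123 and 86.6 RPM from 0 to 3 h, and then 265 RPM at 3-4 h (interval 252 to 278). This single library was the highest of the series for *CycB3*, and 4-5 h was back at 134 RPM (interval 122 to 147). From 12 h on *CycB3* stayed at or under 40.9 RPM, with a low of 7.36 RPM at 20-21 h.

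*CycE* had the widest range of the 8 genes with reads in all libraries, 242-fold between 1768 RPM at 3-4 h (interval 1734 to 1803) and 7.30 RPM at 22-23 h, where 10 reads were counted (interval 3.96 to 13.4). It had 633, 692 and 966 RPM from 0 to 3 h and between 1425 and 1768 RPM in each of the 4 libraries from 3 to 7 h. Every one of these 4 was above every earlier one. It then went down step by step, with 875, 819, 620, 206 and 83.0 RPM in the 5 libraries from 7 to 12 h. From 15-16 h on it was at most 48.2 RPM.

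*dap* was last or next to last of the 10 genes in every library, and its course was unlike that of *CycE*. It had 16.3, 19.7 and 9.62 RPM from 0 to 3 h and 5.23, 6.43 and 8.19 RPM from 3 to 6 h, the hours at which *CycE* was highest. It was highest from 7 to 11 h, with 77.0, 51.0, 49.2 and 35.0 RPM in these 4 libraries, the first of them from only 11 reads (interval 43.0 to 138). The 7-8 h value overlaps that of 8-9 h within counting error. From 15 h on at most 14 reads were seen in any library, and 0 at 22-23 h, which allows up to 2.19 RPM. The 8-9 h level of 51.0 RPM (interval 45.6 to 57.2) was 23.3-fold that limit, a ratio that leaves out the counting error at 8-9 h.

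Of the Cdc25 phosphatases, *stg* was high in the middle of the series and *twe* at its start. *stg* had 688, 986 and 1210 RPM from 0 to 3 h, then between 646 and 809 RPM in the 5 libraries from 3 to 8 h. Its highest levels came after that, with 1436, 1347 and 1387 RPM in the libraries from 8 to 11 h, all above every other library. By 11-12 h *stg* was at 611 RPM, and it ended at 65.0 RPM at 22-23 h. *twe*, known in *D. melanogaster* as the meiotic and maternal Cdc25, had 390, 337 and 390 RPM from 0 to 3 h. It had 131, 76.5 and 102 RPM from 3 to 6 h, and 189, 196 and 159 RPM from 6 to 9 h, so that the middle group lay below both others with no overlap. Later levels of *twe* varied from library to library between 35.8 RPM (17-18 h) and 160 RPM (11-12 h), and its highest level was 10.9-fold its lowest, the narrowest range of the 8 genes with reads in all libraries.

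Among the kinases, *Cdk1* was highest between 6 and 8 h and *polo* stayed level up to 9 h. *Cdk1*, the catalytic subunit for the mitotic cyclins, had 314, 297 and 354 RPM from 0 to 3 h and 206, 259 and 258 RPM from 3 to 6 h. Its highest values were 372 RPM at 6-7 h and 511 RPM at 7-8 h, the second of them from 73 reads (interval 406 to 642), and 141 RPM followed at 8-9 h. The 6-7 h value (interval 340 to 406) did not differ beyond counting error from that of 2-3 h (interval 336 to 373). A level above the early one thus rests on the shallow 7-8 h library alone. Neighbouring libraries of *Cdk1* differed by more than counting error through the middle of the series, with 233, 95.7 and 171 RPM in the libraries from 9 to 12 h. *polo*, the Polo-like kinase of centrosome and spindle, was the steadiest gene up to 9 h, where all 9 libraries lay between 105 and 153 RPM. It then stood at 78.0 RPM at 9-10 h, and from 12 h on it was at most 45.2 RPM. *fzy* had 64.0, 76.8 and 66.6 RPM from 0 to 3 h, and its highest levels were 150 RPM at 6-7 h and 168 RPM at 7-8 h (24 reads, interval 113 to 250). No *fzy* read was seen at 19-20 h, which allows up to 1.75 RPM, whereas 18-19 h and 20-21 h had 11.5 and 9.32 RPM.

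**Figure D2:**
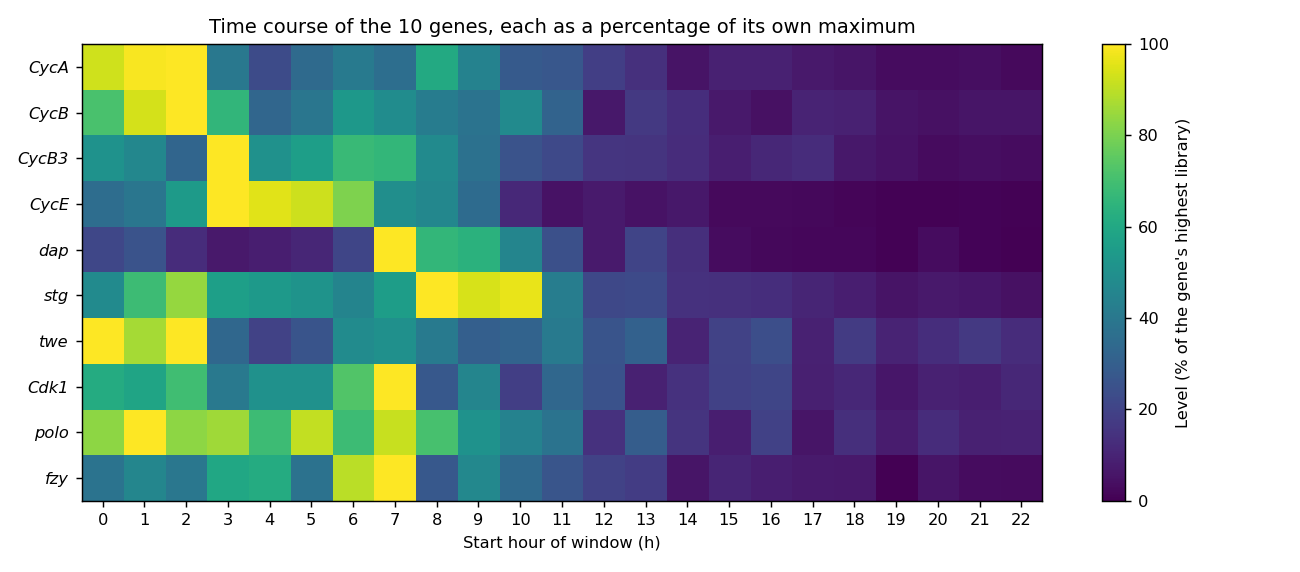
Level of each gene (rows) in each library (columns, start hour), as a percentage of the gene's own highest library. *CycA*, *CycB* and *twe* are brightest before 3 h, *CycE* from 3 to 7 h, and *dap* and *stg* between 7 and 11 h, and from 15 h on no gene exceeds 23.9% of its maximum (*twe*, 16-17 h).

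Between genes, the order of the levels changed with time. At 0-1 h *CycA* was first with 1573 RPM, then *stg* (688 RPM), *CycE* (633 RPM), *twe* (390 RPM), *Cdk1* (314 RPM) and *CycB* (237 RPM). *CycB3* (135 RPM) and *polo* (127 RPM) did not differ beyond counting error there, and *fzy* (64.0 RPM) and *dap* (16.3 RPM) came last. At 3-4 h *CycE* was first, and at 9-10 h *stg*, with *dap* last in both. At 22-23 h *stg* (65.0 RPM), *Cdk1* (56.9 RPM), *twe* (48.9 RPM) and *CycA* (43.8 RPM) followed each other with overlapping intervals, above the other 6 genes.

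The windows above were compared over all 8367 genes that passed the filter on low counts, as a description chosen after the values had been seen. From 3 to 6 h, 5 of the 10 genes (*CycA*, *CycB*, *twe*, *Cdk1* and *dap*) were below all 3 libraries of 0 to 3 h, against 22.8% of all genes, and *CycE* alone was above them, against 14.7% of all genes. *twe* and *dap* were higher from 6 to 9 h than from 3 to 6 h with no overlap (7.28% of all genes), and *CycE* was lower (7.25%). From 12 to 15 h, 7 of the 10 genes were below all libraries of 9 to 12 h, against 15.5% of all genes, and none was above them, against 11.3% of all genes. The exceptions were *CycE*, *twe* and *Cdk1*. With TMM scaling, explained below, *CycB* was not among the genes lower from 3 to 6 h (4 genes, against 18.0% of all genes) and *CycB3* joined *CycE* above (18.1%). From 6 to 9 h *dap* alone was higher (3.78%), without *twe*, and *polo* joined *CycE* below (10.5%). The same 7 genes were lower from 12 to 15 h with either scaling, against 12.9% of all genes with TMM. The window of 3 to 6 h holds the 4-5 h and 5-6 h libraries that stand apart. With 3-4 h alone in its place, the same 5 genes were below 0 to 3 h, against 37.0% of all genes, and *CycB3* and *fzy* joined *CycE* above, against 24.2%. Set against 3-4 h alone, *twe* and *dap* were again higher from 6 to 9 h, against 22.1% of all genes, and *CycB* and *CycB3* joined *CycE* below, against 23.2%.

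To ask whether the levels followed time beyond the scatter between libraries, a smooth curve was fitted to log2(RPM + 1) of every gene with limma. The scatter of the libraries around the curve served as the error. All 10 genes changed over time (adjusted p 5.39e-06 or less in the limma fit), against 89.4% of all genes tested. Such a count is therefore no result about these genes. The residual SD of the 10 genes around their curves ran between 0.379 (*CycB3*) and 0.871 (*dap*) on the log2 scale.

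Points of the curves were compared: 22 h with 0 h, 22 h with 10 h, and 10 h with 0 h. All 10 genes were lower at 22 h than at 0 h, against 47.7% of all genes tested, and none was higher, against 20.6% of all genes. The median difference of the 10 was -3.46 on the log2(RPM + 1) scale, beside -1.22 for all genes. *CycE* had the largest fall of the 10, with a difference of -6.15 ± 0.47 (SE, adjusted p = 2.0e-09, limma), and only 0.681% of all genes tested had a lower value. *CycA* followed with -5.03 ± 0.50 (adjusted p = 3.8e-08). *CycB*, *CycB3*, *fzy* and *stg* had differences between -3.81 and -3.37, and *polo*, *dap*, *twe* and *Cdk1* between -2.89 and -2.58. For *dap*, 5 of the alternatives lost the call, among them leaving out 0-1 h (adjusted p = 0.058) or 22-23 h (adjusted p = 0.10). Over all its alternatives the adjusted p of *dap* ran between 8.2e-05 and 0.12. *Cdk1* lost its call with DESeq2 alone (-0.92, adjusted p = 0.10, with a range of 4.7e-05 to 0.10 over its alternatives).

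The set of 280 late start sites, picked for high levels from 20 to 23 h, held 43.3% of the TSC reads at 22-23 h. Scaling with TMM factors, which line up the bulk of the genes, moved the median of all genes to -0.17 for 22 h minus 0 h and to -0.08 for 22 h minus 10 h. With TMM factors all 10 genes were still lower at 22 h than at 0 h, against 25.0% of all genes. *CycE* again had the largest fall of the 10, then *CycA* with -3.82 ± 0.50, and *Cdk1* had the smallest, -1.38 ± 0.45.

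At 22 h against 10 h all 10 genes were lower again, against 50.7% of all genes, and none was higher, against 16.3% of all genes. The median of the 10 was -3.22, beside -1.12 for all genes. *CycE* had -5.02 ± 0.37 (adjusted p = 3.0e-10, limma), *dap* -4.16 ± 0.65 (adjusted p = 7.5e-06), *fzy* -3.48 ± 0.60 and *stg* -3.33 ± 0.35. *twe* had the smallest difference, -1.25 ± 0.41 (adjusted p = 0.0096), and 46.4% of all genes tested had a lower one. With TMM factors 6 of the 10 genes kept the call, against 21.4% of all genes. These were *CycA*, *CycB3*, *CycE*, *dap*, *stg* and *fzy*, with differences between -3.82 and -1.97. *CycB* (-1.02 ± 0.44), *polo* (-0.69 ± 0.35), *Cdk1* (-0.48 ± 0.35) and *twe* (0.01 ± 0.39) did not pass with TMM factors, with adjusted p values of 0.061, 0.11, 0.27 and 0.99. *twe* also lost its call by library total without the 22-23 h library (-1.01, adjusted p = 0.11, with a range of 0.0023 to 0.99 over its alternatives).

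At 10 h against 0 h the genes were divided. *CycA* (-1.75 ± 0.41), *CycB* (-1.55 ± 0.46), *twe* (-1.54 ± 0.43), *CycE* (-1.13 ± 0.39) and *polo* (-0.98 ± 0.38) were lower, 5 of 10 against 17.1% of all genes tested. None was higher in the limma fit, with 0 also at an unadjusted p below 0.05, against 16.3% of all genes. *dap* had a difference of 1.36 ± 0.69 (adjusted p = 0.14, limma). It was called higher by edgeR (1.54, adjusted p = 0.043) and DESeq2 (1.65, adjusted p = 0.027), which called 1844 and 2324 of all 8367 genes higher. *Cdk1* had -0.84 ± 0.44 (adjusted p = 0.15) and *CycB3* -0.56 ± 0.34 (adjusted p = 0.22). *stg* (-0.04 ± 0.37) and *fzy* (-0.08 ± 0.64) had nearly the same fitted level at both hours. TMM factors gave the same 5 genes, against 17.5% of all genes, and the median of all genes was -0.06 by library total and -0.09 with TMM factors. Without 0-1 h only *CycA* and *CycB* were called, and without 1-2 h *CycB* (adjusted p = 0.051, with a range of 0.0057 to 0.051 over its alternatives) and *polo* were lost. *CycE* also lost its call with a spline of 3 df (-1.18, adjusted p = 0.060), and its adjusted p ran between 0.012 and 0.23 over its alternatives. The call of *polo* (adjusted p = 0.048) was also lost without 4-5 h and 5-6 h (0.055) and in 15 of the 23 fits that left out 1 library, with adjusted p between 0.020 and 0.21 over all its alternatives.

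**Figure D3:**
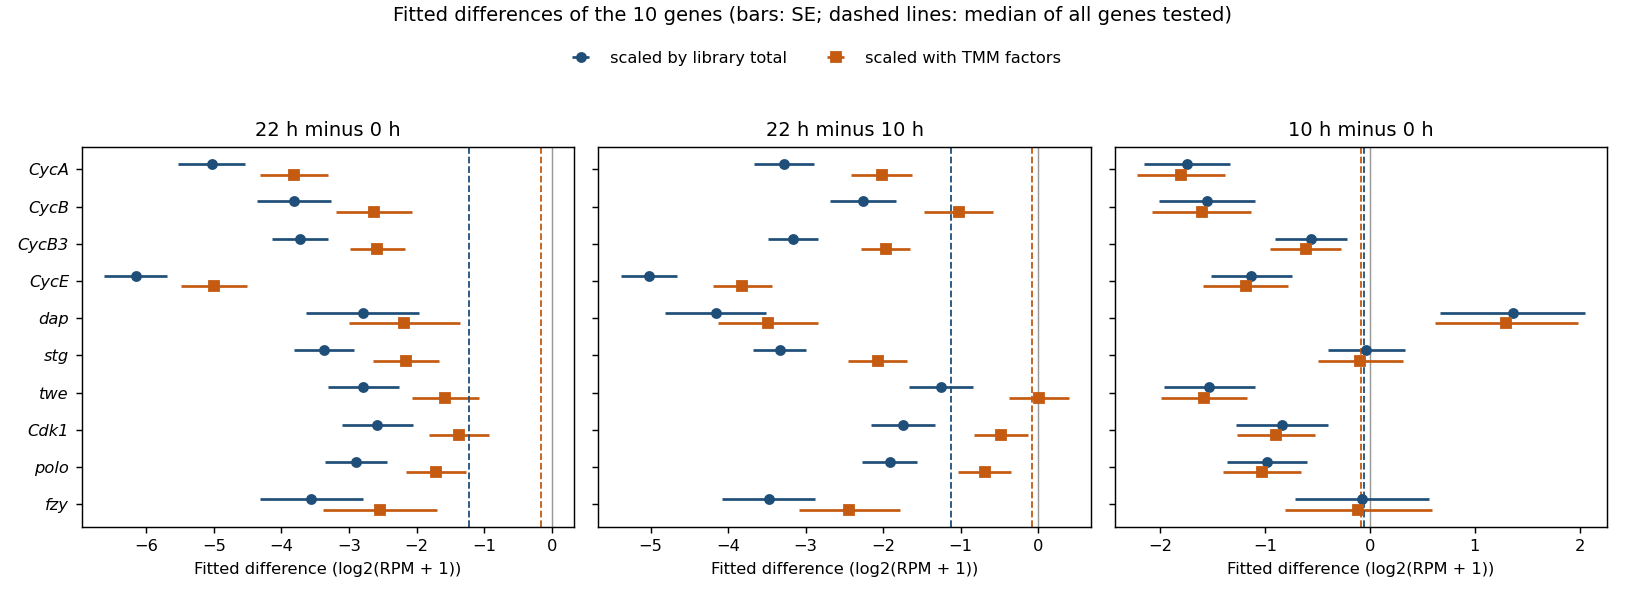
Fitted difference of each gene on the log2(RPM + 1) scale (horizontal axis) for 22 h minus 0 h, 22 h minus 10 h and 10 h minus 0 h, with circles for scaling by library total and squares for TMM factors. Bars are SE and dashed lines the median of all 8367 genes tested. For 22 h minus 0 h all symbols lie left of 0 with either scaling. For 22 h minus 10 h the TMM value of *twe* lies at 0.01.

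Other genes of the cell cycle were counted from a list of 50 further identifiers, of which 46 were in the table and 43 passed the filter. The identifiers and their groups were written down from background knowledge. No table used here pairs identifiers with names, so the membership of the groups could not be checked and the genes are given as counts. Of the 43, 42 changed over time, near the 89.4% of all genes. In the limma fit 39 were lower at 22 h than at 0 h, against 47.7% of all genes, with a median difference of -3.58, beside -1.22 for all genes. None was higher (0 also at an unadjusted p below 0.05), against 20.6% of all genes. At 22 h against 10 h 37 were lower, against 50.7% of all genes (median -2.34, beside -1.12 for all genes). At 10 h against 0 h 20 were lower, against 17.1% of all genes, and 2 were higher, against 16.3% (median -1.34, beside -0.06 for all genes). By the groups as listed, all 7 genes of the spindle and DNA checkpoints, all 6 of the mitotic kinases, Greatwall pathway and passenger complex, all 7 tested of the anaphase-promoting complex and its partners, all 5 E2F and Rb factors, all 3 for sister chromatid separation and all 3 tested for cytokinesis were lower at 22 h than at 0 h. The groups with genes outside the call were the Cdk partners and inhibitory kinases (6 of 9 lower, median -3.55) and the Pan gu complex (2 of 3 lower, median -6.80), which controls translation in the egg. With TMM factors 34 of the 43 were lower at 22 h than at 0 h, against 25.0% of all genes, and 2 were higher, against 27.3%.

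Profiles of log2(RPM + 1) were also compared by Pearson r over the 23 libraries. These libraries share their totals with every gene, so the values are a description only. Among the 45 pairs of the 10 genes r ran between 0.66 (*twe* and *dap*) and 0.97 (*CycB3* and *CycE*), with a median of 0.87. Of all 8367 genes, *CycE* had the highest r with *CycB3*, and *CycB3* had the second highest with *CycE*. The gene nearest to *CycE* was FBgn0000463 (r = 0.98) and that nearest to *CycA* was FBgn0050001 (r = 0.97). *dap* had the least close neighbour, with r = 0.90. Of the 30 nearest genes, 3 for each of the 10, 1 was on the cell-cycle list, next to *CycB* (r = 0.95). Another neighbour of *CycB* (r = 0.95) was the S phase marker, which is not on that list.

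Promoters were then examined one by one. RAMPAGE start sites are grouped into transcription start site clusters (TSCs), each taken as a promoter. The TSC table carries *D. erecta* gene identifiers, and no file pairs them with those of the gene table. Each of the 10 genes was therefore joined to the 1 *D. erecta* gene whose summed TSC reads never exceeded its own in any library and held at least 90% of them. For *CycA*, *twe*, *Cdk1* and *fzy* the reads were identical in all 23 libraries, and for the others the TSCs held 93.7% (*dap*) to nearly all of the gene's reads. In this way 30 of the 22632 TSCs were assigned. TSCs are numbered here as in the files, and positions are 1-based on the scaffolds of release 1.3 of the *D. erecta* genome. RPM of a TSC refers to the reads in all TSCs.

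*twe* and *Cdk1* had a single TSC, on scaffold 4929 at 7957875 to 7958127 and 10995122 to 10995263, both on the minus strand. In *CycA* (scaffold 4784, 11809689 to 11809872, minus strand) and *polo* (scaffold 4784, 20027017 to 20027177, plus strand) TSC 1 held 99.4% and 93.2% of the reads. The other 6 genes had a second TSC with more than 10% of the reads. Of the 30 TSCs, 25 passed the filter on low counts and 24 of these changed over time, against 87.4% of all TSCs tested. The exception was *CycB* TSC 2 (adjusted p = 0.062, limma).

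Start sites of most of these genes were spread out. Among TSCs with at least 1000 reads, the 17 of the 10 genes had a median width of 190 bp, beside 104 bp for all 7178 such TSCs. The 17 include wide TSCs downstream of the main one, in *CycB* (451 bp), *CycB3* (488 bp), *fzy* (363 bp) and *stg* (311 bp). The 2 main TSCs of *stg* were the exception, at 27 bp and 31 bp, and only 5.25% and 7.13% of the 7178 TSCs were narrower. The *twe* TSC was 253 bp wide, that of *Cdk1* 142 bp and the main one of *CycE* 113 bp. The relation of width to depth in these genes was not tested.

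The promoter from which most *CycE* reads came changed in the first hours. TSC 4 (scaffold 4929, 7431869 to 7431981, minus strand) held 70.1% of all *CycE* reads. TSC 1 (7447810 to 7447999) and TSC 3 (7446192 to 7446384) lie 15980 bp and 14363 bp upstream of it, measured between centres. At 0-1 h TSC 1 and TSC 3 had 277 and 269 RPM and TSC 4 had 73.6 RPM. At 1-2 h the 3 TSCs had 204, 257 and 217 RPM, and at 2-3 h 157, 175 and 622 RPM. At 3-4 h TSC 4 was at 1659 RPM and the upstream TSCs at 46.8 and 48.3 RPM. The 2 sets thus moved in opposite directions within 4 h.

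As a share of the *CycE* reads, TSC 4 made up 11.6% at 0-1 h (interval 10.9% to 12.3%), 31.3% at 1-2 h, 64.5% at 2-3 h and 93.5% at 3-4 h (interval 93.0% to 93.9%). In the 7 libraries from 3 to 10 h its share stayed between 89.5% and 98.4%. It was between 49.8% and 72.3% from 10 to 15 h and between 25.0% and 52.9% from 15 to 22 h, where TSC 3 held 32.9% to 52.9%. The late shares rest on 16 to 348 reads a library, and at 22-23 h 9 of 10 reads were from TSC 4. Over the 23 libraries the share of TSC 4 against TSC 3 changed with time (adjusted p = 2.3e-05, quasi-binomial model over 837 genes), with fitted shares between 31.2% and 97.3%. This test called 48.4% of the 837 genes, so a changing share is common among genes with a large second TSC.

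The fitted levels of the *CycE* TSCs went apart in the same way between 0 h and 10 h. TSC 1 had a difference of -4.07 ± 0.52 and TSC 3 one of -4.63 ± 0.83 (adjusted p = 1.4e-06 and 0.00011, limma), whereas TSC 4 had 0.89 ± 0.57 (adjusted p = 0.24). At 22 h against 10 h all 3 were lower, with differences of -3.50 ± 0.49 for TSC 1, -2.76 ± 0.78 for TSC 3 and -5.50 ± 0.53 for TSC 4. TSC 1 and TSC 3 had 68.0% and 67.4% of their summed RPM before 3 h, and TSC 4 had 9.24%. Most *CycE* reads at 0-1 h were thus from TSC 1 and TSC 3, and most of those from 3 to 7 h from TSC 4.

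**Figure D4:**
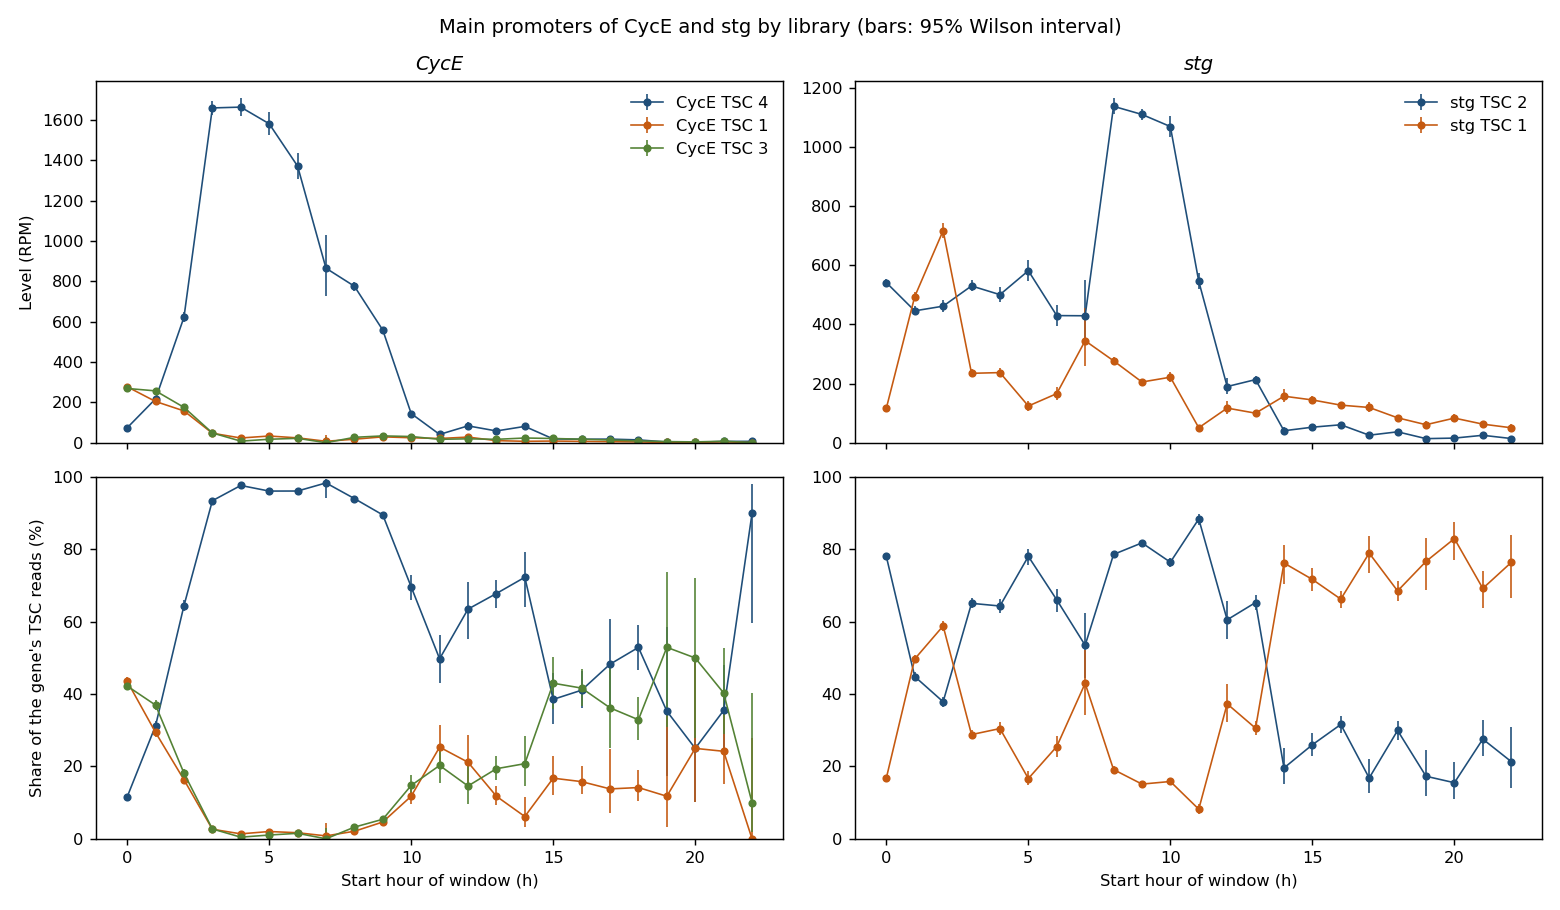
Top, level in RPM of the main TSCs of *CycE* (left) and *stg* (right) by start hour. Bottom, the share of each TSC among all TSC reads of its gene. Bars are 95% Wilson intervals, 1 library per point. *CycE* TSC 4 passes 93% of the reads at 3-4 h, and *stg* TSC 1 holds 66.3% or more in each of the 9 libraries from 14 h on.

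Most *stg* reads came from a pair of close promoters, in shares that changed with time. TSC 1 (scaffold 4820, 2944494 to 2944520, plus strand) lies 525 bp upstream of TSC 2 (2945017 to 2945047), which held 67.1% of all *stg* reads. TSC 1 had 116, 494 and 717 RPM from 0 to 3 h, and its share was 16.8% at 0-1 h, 49.7% at 1-2 h and 58.8% at 2-3 h. TSC 2 had 541, 446 and 461 RPM in the same libraries, so the early peak of *stg* at 2-3 h was a peak of TSC 1. The high levels from 8 to 11 h were those of TSC 2, with 1137, 1109 and 1068 RPM, against 277, 205 and 221 RPM for TSC 1.

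After 14 h the order of the *stg* promoters was reversed. TSC 1 held between 66.3% and 83.0% of the reads in each of the 9 libraries from 14 to 23 h, against between 8.18% and 43.0% in the 11 libraries from 3 to 14 h. The groups did not overlap, but the split at 14 h was chosen after the values had been seen. How many other genes show such a split was not tested. The libraries before 3 h are in neither group. Among them, TSC 1 was already above TSC 2 at 1-2 h (49.7% against 44.9%) and at 2-3 h (58.8% against 37.9%). TSC 2 had 15.5% to 31.6% in the late libraries. The change of share passed the test (adjusted p = 0.00029, quasi-binomial model), with fitted shares of TSC 2 against TSC 1 between 17.7% and 78.6%. At 22 h against 10 h TSC 1 had a difference of -1.51 ± 0.52 and TSC 2 one of -4.95 ± 0.45 on the log2(RPM + 1) scale.

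The other 4 genes with a second TSC above 10% of the reads did not pass the test of share: *CycB* (adjusted p = 0.32), *dap* (0.62), *fzy* (0.87) and *CycB3* (0.90), all from the quasi-binomial model. In each of these the second TSC lies between 1772 bp and 2721 bp downstream of the first. Those of *CycB*, *CycB3* and *fzy* were 451, 488 and 363 bp wide. Of all TSCs with at least 1000 reads, 98.7%, 99.1% and 97.3% were narrower than these. Whether the downstream TSCs are promoters of their own was not tested. The second TSC with the most reads is *CycB* TSC 3 (scaffold 4845, 20055233 to 20055683, minus strand), with 3703 reads or 29.4% of the *CycB* reads, 2365 bp from TSC 1 (20057748 to 20057898). It was highest at 2-3 h with 168 RPM, when TSC 1 had 44.8% of the reads, whereas TSC 1 was highest at 0-1 h with 180 RPM and 78.3% of the reads. *fzy* TSC 2 (scaffold 4929, 8007614 to 8007976, plus strand) held 1600 reads or 31.4% of the *fzy* reads, the highest share of the 4, *CycB3* TSC 2 (scaffold 4820, 7358993 to 7359480, plus strand) 23.4% and *dap* TSC 3 (scaffold 4929, 8753431 to 8753537, minus strand) 16.7%.

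Median shares were also compared between libraries of different depth. *CycE* TSC 4 had a median share of 52.9% in the 11 libraries with more reads than the median library and 71.0% in the other 12, and *stg* TSC 2 had 44.9% and 57.0%. *CycB* TSC 1 had a median share of 74.8% in the 11 deeper libraries and 58.3% in the other 12. For *fzy* TSC 1 the medians were 72.8% and 60.7%, and for *dap* TSC 1, over libraries with at least 10 reads, 83.3% and 57.9%. For *CycB3* TSC 1 they were nearly the same, at 79.0% and 79.5%. The ranges of deeper and shallower libraries overlapped in each of these 6 genes. The part of depth in these shares, those of *CycE* and *stg* included, was not tested.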

How the data were processed

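RAMPAGE libraries of *D. erecta* embryos, 1 for each of 23 hourly windows, were barcoded and processed as a single pool. The authors mapped read pairs with STAR (version not given in the sources used here) to FlyBase release 1.3 and called TSCs on the pooled reads of the series with their own peak caller. Both deposited expression tables hold RPM made by the authors. In the gene table RPM refers to a library total of which the listed genes hold a part, and in the TSC table to the reads in all TSCs. The deposited list of TSC positions also holds a score of unstated meaning, and a further deposited table holds smoothed and aligned z-scores. Neither was used. No sample column was left unused.

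Every value above 0 (185320 in the gene table, 379172 in the TSC table) was a whole multiple of 1 read within 0.02, so whole reads were recovered for 100% of them. Totals ranged from 142925 to 13984136 reads. A count of 0 allows up to 3 reads. Reads are not independent molecules, so intervals cover counting error only.

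Because the values are RPM, limma 3.58.1 (trend) was fitted to log2(RPM + 1) with a natural spline of the start hour (4 df) on all genes kept by filterByExpr of edgeR 4.0.16 (minimum count 10). This scale understates changes of low genes. An adjusted p (Benjamini-Hochberg, over all genes tested) below 0.05 was taken as a call, and differences are the later minus the earlier point of the curve. The p-values treat libraries as independent and measure only their scatter. TSCs were tested alike. The share of the main against the second TSC was tested with a quasi-binomial model (spline of 3 df) for 837 genes with at least 500 reads and at least 10% of them in the second TSC, over libraries with at least 10 reads. After a test on simulated data each library was limited to 20 reads in this model, which was not part of the first design. TMM factors, the quasi-likelihood test of edgeR and DESeq2 1.42.0 on the recovered reads were among the alternatives.

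All 10 genes are named, with the TSCs that the comparisons of promoters rest on (the others of the 30 are counted only), and for each gene the 3 nearest profiles were taken, of which 2 identifiers are printed. The identifiers of the cell-cycle list and of the stage markers were written from background knowledge and are counted and not named, since no table pairs them with names. The list of 10 genes uses no threshold on a measured value, but it and the other lists were chosen with earlier results of these data known. Joining by read counts was tried on all 5747 genes with at least 1000 reads, of which 5072 had exactly 1 candidate, 61 had 2 and 614 had none. No genome sequence was used. Python 3.11 tables and figures were made with pandas and matplotlib, and R 4.3.3 was used for the fits.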

Additional observations from a re-analysis of the deposited data

How the results depend on the processing

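No paired analysis was possible because each hour has 1 library and no replicate numbers are shared. All 10 genes changed over time under each of the 34 alternatives (adjusted p at most 0.0008), against 89.4% of all genes in the main limma fit. Of these 34, 2 are the same fit, without the shallow 7-8 h library. Only 6 of the 10 genes could be tested for promoter share. Of these 6, *CycE* and *stg* alone had a changing share, under all of their alternatives. In the main fit this was 2 of 6, against 48.4% of all genes tested. Their alternatives included no limit on reads and a limit of 200 reads, both chosen after seeing the data. The adjusted p of the quasi-binomial model was at most 0.033 for *CycE* and 0.021 for *stg*. Leaving out each library in turn gave 41 to 43 changing genes of the cell-cycle list, and 7202 to 7729 of all genes (8326 to 8369 tested). Of the 10 genes, 9 to 10 were lower at 22 h than at 0 h (3430 to 4145 of all genes). At 22 h against 10 h 9 to 10 were lower (3756 to 4580), and at 10 h against 0 h 2 to 6 (837 to 1507). These fits also gave 23 to 25 changing TSCs of the 10 genes (12625 to 13525 of 14793 to 14899 TSCs tested). They gave 2 changing shares (376 to 404 of 835 to 837 genes tested). The count of genes lower at 22 h than at 10 h moved to 6 with TMM factors, 6 with edgeR and 6 with DESeq2. Of all 8367 genes, 1788, 1673 and 1187 were lower with these settings. For *twe* this difference reversed, to 0.0087 with TMM factors and 0.34 with DESeq2. TMM and DESeq2 scaling moved the median of all genes for 22 h minus 10 h from -1.12 to -0.08 and 0.26. For 22 h minus 0 h it went from -1.22 to -0.17 and 0.36. The DESeq2 differences thus stand beside a median above 0. Of 850 alternative values of called differences, 809 kept direction and call, 39 lost the call and 2 reversed. These counts hold the fit without 7-8 h 2 times. Depth limited *dap* most (0 to 14 reads a library from 15 h on).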
